A study of Homo sapiens with 8 samples.

Results

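YAP1, WWTR1 (the gene of TAZ), TEAD1, TEAD2, TEAD3, TEAD4 and the target genes CCN1, CCN2, AMOTL2 and ANKRD1 were examined in peak lists of open chromatin from 8 samples of human lung cancer cells. The 10 genes were taken by name out of 20056 protein-coding genes with a position in the RefSeq gene table (GRCh38.p14). For each gene, every listed peak in the gene body and 50 kb either side was taken from each list, with its position, width and rank. ATAC-seq, in which a transposase cuts and tags accessible DNA, was applied to the established lines H1975 and HCC44, both labelled WT in genotype. Each line was given DMSO, the solvent, or ACBI1 for 96 h, and each of the 4 groups has 2 replicates. The compound ACBI1 makes cells degrade the SWI/SNF remodelling ATPases SMARCA4 and SMARCA2, together with PBRM1, a subunit of one form of that complex. The labelled dose, 1 mM, is given only as labelled. The series title places SMARCA4 in lung cancer beside the STING pathway.

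YAP and TAZ are transcriptional co-activators that do not bind DNA themselves. When the Hippo kinases phosphorylate them they stay in the cytoplasm, and when the kinases are quiet they enter the nucleus and act through the TEAD factors, often at distal enhancers that also carry AP-1. The TEAD factors bind the core GGAATG, and CCN1, CCN2, ANKRD1 and AMOTL2 are widely used as readouts of their activity, AMOTL2 being itself an inhibitor of YAP.

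The lists held 41027 to 50347 peaks with DMSO and 22133 to 27682 with ACBI1, the shortest being H1975 ACBI1 replicate 2. Read depth is unknown, and a missing peak is not a measurement of closed chromatin. Nothing in the labels says that replicates were separate cultures, so a p-value measures only the spread between these samples, which may be technical. With 36 arrangements the exact permutation test cannot go below p = 0.0556, two-sided, so no gene can pass 0.05. As a check of the cell type, EPCAM, KRT8, KRT18 and KRT7 had a promoter or gene-end peak in all 8 lists, as did VIM, ZEB1, FN1, SFTPC and FOXA2. CDH1 had one in 7 lists, and NKX2-1 had one in all 4 H1975 lists and 1 HCC44 list. PTPRC, PECAM1 and CDH5 had none in any list, SFTPB had none, and CD3E had one in 3 lists.

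The 10 gene windows together held fewer listed peaks with ACBI1 in both lines. The DMSO lists of H1975 had 70 and 69 of them, against 47 and 36 in the ACBI1 lists. Those of HCC44 had 92 and 89, against 54 and 48. The groups did not overlap in either line. The lists as wholes were also shorter with ACBI1, and the windows made up 0.161% to 0.170% of each H1975 list. In HCC44 they made up 0.183% and 0.178% with DMSO and 0.205% and 0.193% with ACBI1, a difference that was not tested.

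Gene by gene, 7 of the 10 windows in H1975 had fewer peaks in each ACBI1 list than in either DMSO list, beside 49.5% of 17527 protein-coding genes. In HCC44 it was 9 of 10, beside 62.4% of 17677 genes, and 7 windows had this order in both lines, beside 37.5% of 18150 genes. No window had more peaks with ACBI1 in either line, beside 1.65% of genes in H1975, 2.03% in HCC44 and 0.182% in both. The median difference over the 10 genes was −2.5 peaks a window, against −1.25 over all genes tested, with no account taken of window length. Relative to the DMSO count, the members kept a median of 56.3% of peaks in H1975, against 75% over all genes. In HCC44 the medians were 68.3% and 66.7%. The same smallest p of 0.0556 (exact permutation test, two-sided) was reached by 6838 genes, and the smallest adjusted p (Benjamini-Hochberg over all genes) was 0.147. No gene of the 18150 had an unadjusted p under 0.05.

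**Figure D1:**
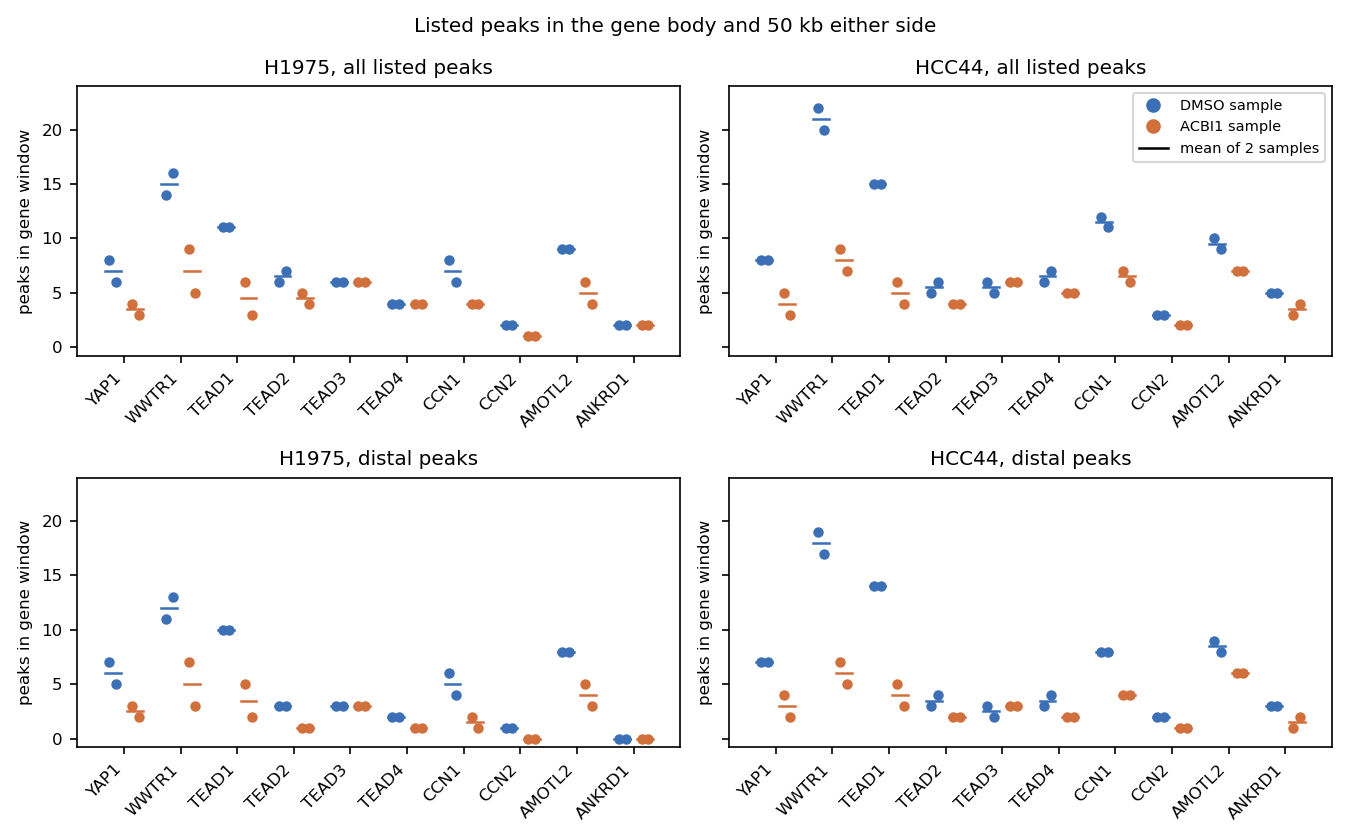
Listed peaks (vertical axis, number) in the window of each gene (horizontal axis), for all peaks in the upper panels and for distal peaks in the lower ones, with 1 point a sample and a line at the mean of 2 samples. WWTR1 has 14 and 16 peaks (DMSO) against 9 and 5 (ACBI1) in H1975, and 22 and 20 against 9 and 7 in HCC44, while TEAD3 has 5 or 6 throughout.

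This order depended on list length. When every list was cut to its 22133 peaks of highest −log10 q, 0 of the 10 windows in H1975 and 2 in HCC44, YAP1 and CCN1, had fewer peaks with ACBI1, beside 13.4% and 15.1% of genes. TEAD3 and TEAD4 then had more peaks in both lines, and TEAD2 in H1975, beside 28.5% and 36% of genes. TEAD4 went from 1 and 1 peaks to 4 and 4 in H1975, and from 2 and 1 to 5 and 5 in HCC44.

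The peaks were split into those within 1 kb of a member's own start (or of either gene end for TEAD1, TEAD4 and CCN1), those at the promoter of another gene, and distal ones. Peaks at the members' own starts and ends numbered 10, 11, 12 and 12 in the H1975 lists (DMSO 1 and 2, then ACBI1 1 and 2) and 13, 12, 12 and 11 in the HCC44 lists. Distal peaks numbered 51 and 49 with DMSO and 27 and 16 with ACBI1 in H1975, and 71 and 69 with DMSO and 35 and 30 with ACBI1 in HCC44. The smaller number with ACBI1 thus lay mostly in the distal class, while the own-promoter class held 10 to 13 in every list. Distal peaks made up 72.9% and 71.0% of the peaks in the H1975 windows with DMSO and 57.4% and 44.4% with ACBI1. In HCC44 they made up 77.2% and 77.5% with DMSO and 64.8% and 62.5% with ACBI1. Distal peaks were fewer in both ACBI1 samples at 8 of the 10 genes in H1975, beside 53.6% of genes with a distal peak, and at 9 in HCC44, beside 63.4%. ANKRD1, counted among the 10, had no distal peak in any H1975 list.

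All 10 genes had a promoter or gene-end peak in both DMSO samples of each line and kept one in both ACBI1 samples. For CCN1 in HCC44 this rested on the upper end of the gene. The peak at its lower end was missing from HCC44 ACBI1 replicate 2. At TEAD2 the stretch covered by these peaks over all lists, chr19:49361672-49364090, also overlapped the promoter of the neighbouring gene DKKL1. Of the TEAD2 starts, position 49362416 had a peak over it in 4 lists and position 49361517 in 0. Among all genes with such a peak in both DMSO samples, 95.9% of 12013 kept one in H1975 and 92.9% of 12213 in HCC44. Keeping a promoter peak was therefore the general pattern of these lists. At equal list length 8 members in H1975 and 5 in HCC44 had such a peak in both DMSO samples, and all of these kept it, beside 99.1% and 98.3% of genes. More members, 10 and 8, had one in both ACBI1 samples. With peaks of at least 5-fold enrichment 6 members had one with DMSO in H1975 and 1 in HCC44, and these kept it too, beside 92.2% and 66.8%. With ACBI1 it was 8 and 2. The shares of all genes with one in both ACBI1 samples were not counted at these settings. At a minimum −log10 q of 20, 9 members in H1975 and 7 in HCC44 had one in both DMSO and both ACBI1 samples. TEAD3 and ANKRD1 then had one in both HCC44 DMSO lists and in neither HCC44 ACBI1 list. The share over all genes was not counted at that setting.

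Peaks of a line that overlapped were merged into regions. A region is called lost when both DMSO samples and neither ACBI1 sample listed a peak in it, gained when the reverse held, and retained when all 4 samples did. Strength is given as the rank of the peak in its own list by −log10 q, in percent from the top, since q values and fold enrichments are the authors' own and differ in scale between lists. Percent ranks from lists of different length describe each list and show no change between groups.

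YAP1 lies at chr11:102110447-102233424 on the forward strand. Its DMSO lists held 8 and 6 peaks in H1975 and 8 and 8 in HCC44, and its ACBI1 lists 4 and 3 (H1975) and 5 and 3 (HCC44). The mean difference was −3.75 peaks (exact permutation p = 0.0556), and the groups did not overlap in either line. The peak over the YAP1 start was 2302 and 2287 bp wide with DMSO and 2240 and 1897 bp with ACBI1 in H1975, and 2318 and 2289 against 2214 and 2156 bp in HCC44. Promoter peaks were narrower with ACBI1 in both lines at 45.7% of the 10317 starts that had a peak within 50 bases in all 8 lists, a comparison chosen after the values were seen. A strong distal region in the gene body, at chr11:102177782-102178618, stood at 19.5% and 24.9% from the top of the H1975 DMSO lists by −log10 q and remained listed with ACBI1, at 51.4% and 88.7%. In HCC44 the region stood at 16.9% and 28.5% with DMSO and was in neither ACBI1 list. The region above the gene at chr11:102267770-102269263 was listed in all 8 samples. The difference between the lines at the first region was not tested. Among weaker gene-body regions, chr11:102225742-102227007 was lost in H1975 and still in 1 HCC44 ACBI1 list, chr11:102138308-102139434 was retained in HCC44 and missing from H1975 ACBI1 replicate 2, and chr11:102144073-102144879 was an HCC44 region that was lost.

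WWTR1, at chr3:149517235-149724788 on the reverse strand, had the largest difference in listed peaks of the 10 genes. Its window held 14 and 16 with DMSO and 9 and 5 with ACBI1 in H1975, and 22 and 20 with DMSO and 9 and 7 with ACBI1 in HCC44. The mean difference was −10.5 (exact permutation p = 0.0556), and 0.479% of all genes had a difference at least as large, with no account taken of window length. Relative to the DMSO count, WWTR1 kept 46.7% of its peaks in H1975 and 38.1% in HCC44. As small a share was kept by 17.1% and 17.5% of genes with a DMSO peak. The window of WWTR1, 308 kb, was longer than those of all other members but TEAD1. Of the 11 regions in its window that were listed in all 4 DMSO samples, 4 were listed in no ACBI1 sample of either line. One lay over the promoter of the neighbouring gene TM4SF4, at chr3:149473574-149474173, and stood at 34.2% and 38.2% from the top in H1975 DMSO and at 25.0% and 29.2% in HCC44 DMSO. Another lay in the WWTR1 gene body at chr3:149646289-149646665, at 39.3% and 39.2% in H1975 DMSO and 25.5% and 28.6% in HCC44 DMSO. Both were also lost in each line when the lists were cut to equal length. The other 2 were at chr3:149494326-149495033 and chr3:149596217-149596583. At least 4 such regions were found in the windows of 1.73% of genes. A further start in the promoter table, at position 149703273, had no peak within 1 kb in any sample.

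Regions that did not leave the WWTR1 lists included the promoter and a pair of gene-body regions at chr3:149575535-149576513 and chr3:149579968-149582206. The promoter peak was shorter with ACBI1, at 1376 and 964 bp against 1967 and 1819 bp in H1975 and 1685 and 1795 bp against 2375 and 2092 bp in HCC44. Its edge after the start, at position 149658025, lay 1145 and 968 bases away with DMSO and 561 and 347 with ACBI1 in H1975, and 1503 and 1215 against 843 and 960 in HCC44. This edge lay nearer in both lines at 51.8% of starts. Of the pair of gene-body regions, the first stood at 5.97% and 6.33% from the top with DMSO and 33.2% and 56.1% with ACBI1 in H1975, and at 6.01% and 24.3% against 40.4% and 37.3% in HCC44. Among the 15072 regions listed in all 8 samples it ranked lower with ACBI1 in both lines by −log10 q, while by fold enrichment the HCC44 groups overlapped, at 83.9% and 93.4% with DMSO and 84.9% and 81.6% with ACBI1. Other gene-body regions left 1 line: chr3:149548018-149548687 was lost in H1975, and chr3:149586915-149587340 in HCC44. The region chr3:149479921-149480661, below the gene, was retained in HCC44 and missing from H1975 ACBI1 replicate 2.

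**Figure D2:**
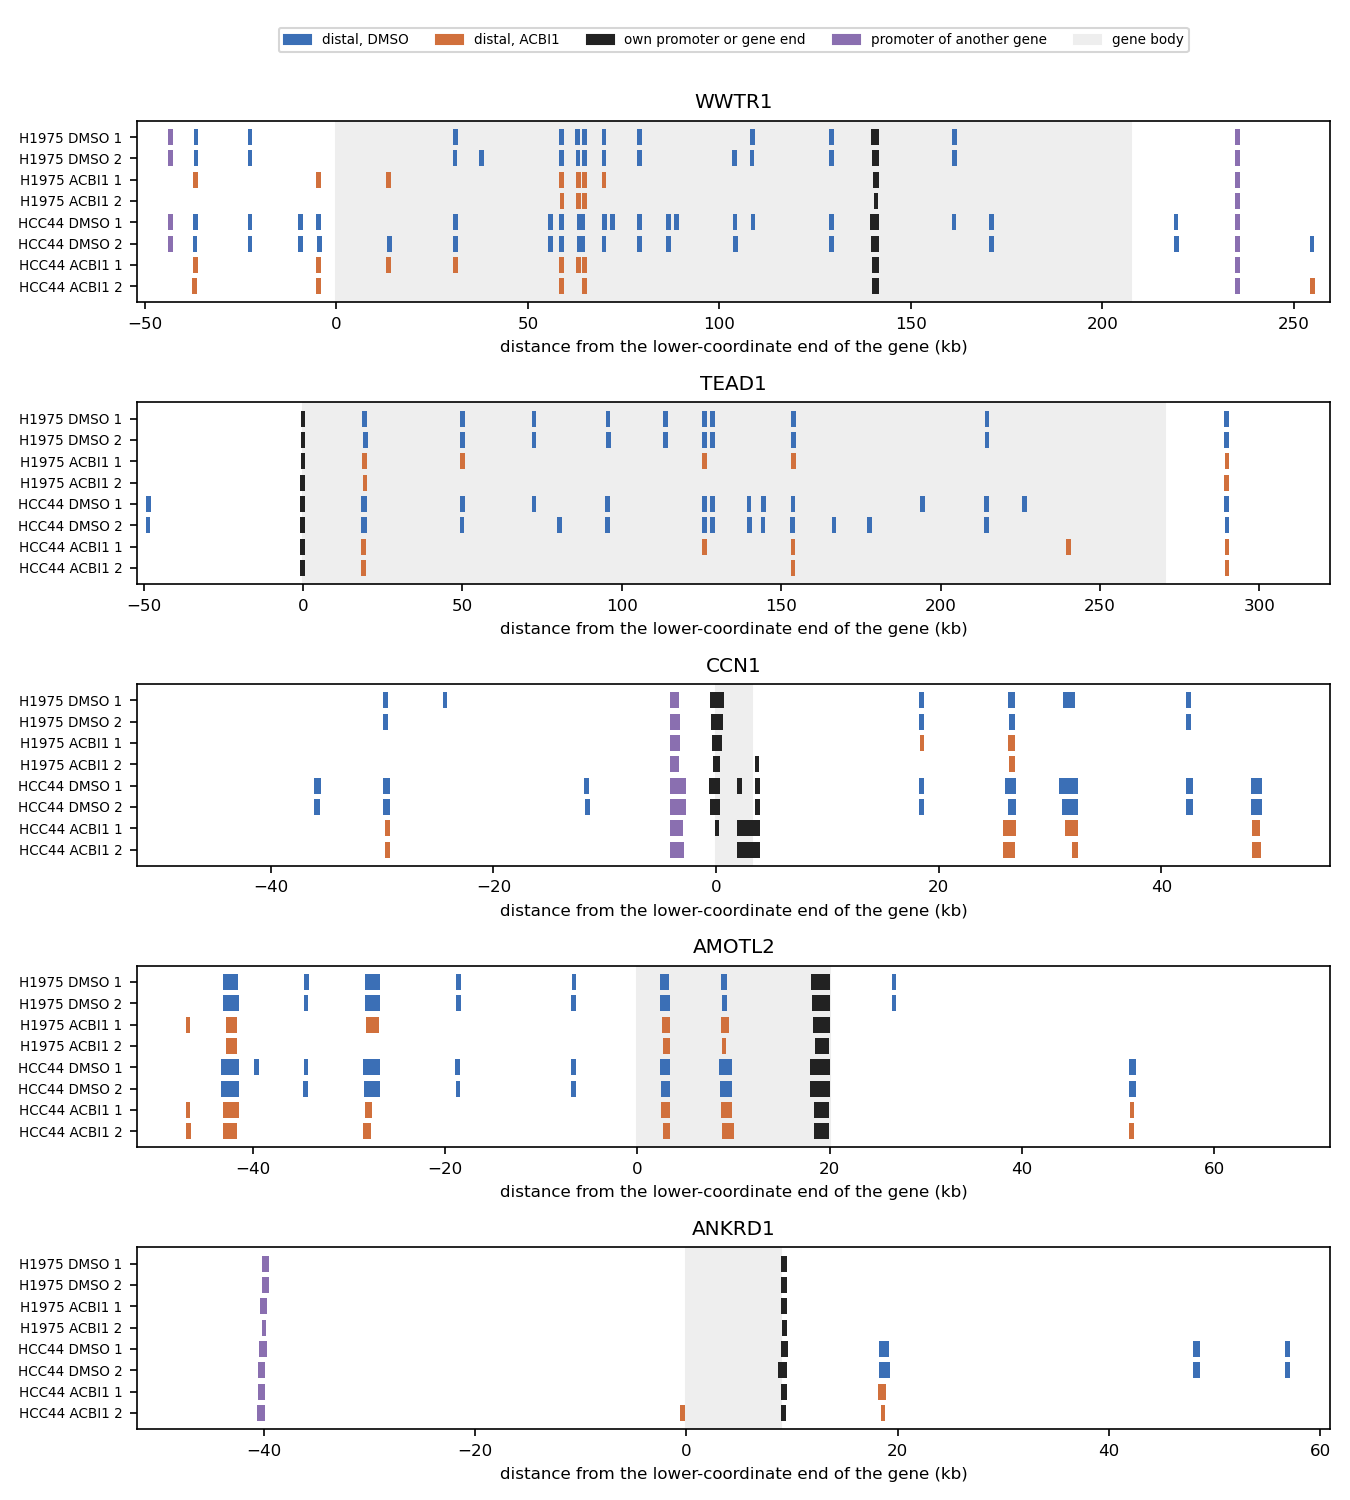
Listed peaks of each sample (rows) around 5 genes, by distance in kb from the lower-coordinate end of the gene (horizontal axis), with peaks coloured by class and treatment and the gene body shaded; very narrow peaks are drawn at a minimum width. In the WWTR1 panel the DMSO rows hold 14 to 22 peaks and the ACBI1 rows 5 to 9, and the promoter peak is in all 8 rows.

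TEAD1, at chr11:12674421-12944737, encodes a TEAD factor found in most tissues. Its window held 11 peaks in each H1975 DMSO list against 6 and 3 with ACBI1, and 15 in each HCC44 DMSO list against 6 and 4. The mean difference was −8.25 (exact permutation p = 0.0556), and 1.23% of genes had a difference at least as large, with no account taken of window length. Relative to the DMSO count, TEAD1 kept 40.9% of its peaks in H1975 and 33.3% in HCC44. As small a share was kept by 13.9% and 15.3% of genes with a DMSO peak. The window, 370.3 kb, was the longest of the 10. Of 9 regions listed in all 4 DMSO samples, 3 were lost in both lines, all in the gene body, at chr11:12769498-12770337, chr11:12802642-12803021 and chr11:12888686-12889194. The lower-coordinate end of the gene had a peak in all 8 lists, the other end in none. The strongest retained distal region, chr11:12692724-12694537 in the gene body, stood at 48.4% and 48.9% from the top with DMSO and 52.6% and 72.6% with ACBI1 in H1975, and in HCC44 it stood at 37.7% in DMSO replicate 1, higher in DMSO replicate 2, and at 71.9% and 66.7% with ACBI1. The region at chr11:12963940-12964504, above the gene, was also in all 8 lists. Loss in HCC44 alone was seen at chr11:12723850-12724878, still in 1 H1975 ACBI1 list, and at chr11:12818603-12818936, in no H1975 list. The region chr11:12827251-12828551 was retained in HCC44 and missing from H1975 ACBI1 replicate 2.

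The other TEAD genes had fewer peaks and smaller differences. TEAD2, at chr19:49340595-49362416, had 6 and 7 peaks against 5 and 4 (DMSO, then ACBI1) in H1975, and 5 and 6 against 4 and 4 in HCC44. TEAD3, at chr6:35473597-35497079, had 6 peaks in every list except HCC44 DMSO replicate 2, which had 5. TEAD4, at chr12:2959397-3040676, had 4 peaks in every H1975 list, and 6 and 7 with DMSO against 5 and 5 with ACBI1 in HCC44. TEAD3 was thus the only member whose groups overlapped in both lines, with p = 1 by the exact permutation test.

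Gained regions were found beside TEAD3, TEAD4 and AMOTL2. At TEAD3, chr6:35473994-35474981 was listed in both ACBI1 samples and in no DMSO sample of H1975, and chr6:35449539-35449904 in both ACBI1 samples and no DMSO sample of HCC44. At TEAD4, a peak at the upper end of the gene, chr12:3041102-3041835, was gained in H1975 and was in all 4 lists of HCC44. At AMOTL2, chr3:134308475-134308811 was gained in HCC44 and was also listed in H1975 ACBI1 replicate 1. In H1975 2 of the members' 79 regions were gained, beside 1.35% of all 48423 regions. In HCC44 it was 2 of 103, beside 2.28% of 58466. Among distal regions it was 1 of 57 in H1975, beside 1.62%, and 2 of 83 in HCC44, beside 2.69%. At the members' own starts and ends it was 1 of 13 in H1975, beside 0.508% of promoter regions. In HCC44 it was 0 of 12, beside 0.698%. Without H1975 ACBI1 replicate 2, 5 regions were gained in H1975. At TEAD3, a gene-body region, chr6:35484940-35486626, was lost in HCC44 and retained in H1975, and at TEAD2 chr19:49390725-49392512 showed the reverse. These differences between lines were not tested. The lost distal regions were chr19:49403561-49404084 at TEAD2 and chr12:3046562-3047097 at TEAD4 in both lines, chr6:35545112-35545327 at TEAD3 in H1975, and chr12:3073539-3074054 at TEAD4 in HCC44. Retained in all 8 lists were chr19:49301206-49302039 at TEAD2, chr6:35522703-35523292 at TEAD3 and chr12:2944308-2945213 at TEAD4. The promoter peak of TEAD3 reached 948 and 978 bases before the start with DMSO and 892 and 515 with ACBI1 in H1975, and 930 and 954 against 732 and 276 in HCC44. The mean difference was −349 bases, and at 4.06% of 10317 starts it was as large in this direction. This upstream edge lay nearer in both lines at 22% of starts, a comparison chosen after the values were seen.

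CCN1, at chr1:85580761-85583950, encodes a secreted matricellular protein, as CCN2 does. Its window had 8 and 6 peaks against 4 and 4 (DMSO, then ACBI1) in H1975, and 12 and 11 against 7 and 6 in HCC44. The mean difference was −4 (exact permutation p = 0.0556), and the groups did not overlap. At its lower end the peak was in 7 lists and missing from HCC44 ACBI1 replicate 2, where a peak at the other end of the gene was listed.

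Distal regions of CCN1 differed among themselves. The region at chr1:85598981-85599437, above the gene, stood at 25.5% and 49.2% from the top in H1975 DMSO and at 3.64% and 13.9% in HCC44 DMSO, and it was in no HCC44 ACBI1 list and in 1 H1975 ACBI1 list, at 94.9%. At equal list length it was lost in both lines. The region at chr1:85622949-85623627 was lost in both lines in the full lists. Below the gene, chr1:85550834-85551480 was lost in H1975 and retained in HCC44, and chr1:85544628-85545242 was an HCC44 region that was lost. The region chr1:85611602-85613308 was retained in HCC44 and was in 1 H1975 DMSO list. The region at chr1:85606496-85607688 was listed in all 8 samples, and chr1:85628773-85629820 was listed in all 4 HCC44 samples and no H1975 sample. Among the 15072 regions listed in all 8 samples, the region at chr1:85606496-85607688 ranked lower with ACBI1 in both lines by −log10 q and higher in both lines by fold enrichment, so its direction depended on the measure.

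CCN2, at chr6:131948176-131951372 on the reverse strand, had few listed peaks, 2 and 2 with DMSO and 1 and 1 with ACBI1 in H1975, and 3 and 3 against 2 and 2 in HCC44. Its promoter peak was in all 8 lists. No distal region was listed in the DMSO samples of both lines. In H1975 the distal peak at chr6:131966531-131966816 was lost, and in HCC44 chr6:131914486-131915605 was retained. Above the first of these, 149 kb up to position 132115836 held no peak in any list.

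The extent or rank of the promoter peak differed between the groups at CCN2, ANKRD1 and AMOTL2, but not only there. Promoter peaks were also narrower with ACBI1 in both lines at YAP1, WWTR1 and TEAD3, which are not shown. The WWTR1 and TEAD3 windows held no GGAATG core. The sequences shown are those of the target genes CCN2, ANKRD1 and AMOTL2. They are the 250 bases before the start, 5′ to 3′ on the gene's strand, from RefSeq (GRCh38.p14), with matches to GGAATG or its reverse complement CATTCC in capitals.
CCN2 promoter, chr6:131951373-131951622, reverse strand: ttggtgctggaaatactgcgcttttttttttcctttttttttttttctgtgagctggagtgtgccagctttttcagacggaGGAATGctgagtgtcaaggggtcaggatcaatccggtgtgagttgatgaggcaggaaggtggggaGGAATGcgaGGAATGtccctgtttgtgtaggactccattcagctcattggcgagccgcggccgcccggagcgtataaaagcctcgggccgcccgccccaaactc
ANKRD1 promoter, chr10:90921088-90921337, reverse strand: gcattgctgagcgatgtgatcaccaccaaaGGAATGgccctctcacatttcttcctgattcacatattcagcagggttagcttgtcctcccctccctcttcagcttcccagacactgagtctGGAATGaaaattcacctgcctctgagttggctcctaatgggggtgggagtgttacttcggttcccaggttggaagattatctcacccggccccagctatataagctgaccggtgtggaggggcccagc
AMOTL2 promoter, chr3:134374448-134374697, reverse strand: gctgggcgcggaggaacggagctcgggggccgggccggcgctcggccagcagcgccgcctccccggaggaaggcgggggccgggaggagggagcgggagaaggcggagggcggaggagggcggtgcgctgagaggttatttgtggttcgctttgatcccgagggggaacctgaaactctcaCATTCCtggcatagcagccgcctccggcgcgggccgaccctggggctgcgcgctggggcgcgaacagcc

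Matches were counted on both strands in windows of 300 bases, from 250 before to 50 after a start. CCN2 held 3 GGAATG cores, and 0.1% of 21987 promoter windows held at least 3. ANKRD1 held 2, and 1.06% of windows held at least 2. AMOTL2 and YAP1 held 1 each, and 12.2% of windows held at least 1. ANKRD1 also held the AP-1 motif TGANTCA as TGATTCA, 195 to 189 bases before its start, a motif without overlap with the TEAD cores and held by 6.16% of windows. The windows of WWTR1, TEAD2 and TEAD3 held neither motif. A match is a run of letters and not a measured binding site.

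The upstream edge of the CCN2 promoter peak lay closer to the start with ACBI1 in both lines. It lay 150 and 167 bases before the start with DMSO and 59 and 78 with ACBI1 in H1975, and 157 and 159 with DMSO and 80 and 80 with ACBI1 in HCC44. The 4 ACBI1 values were all below the 4 DMSO values, with a mean difference of −84 bases (exact permutation p = 0.0556, adjusted p = 0.191 by Benjamini-Hochberg over 10317 starts). The upstream edge lay nearer in both lines at 22% of starts, and at 27.3% the mean difference was as large in this direction. The size of the shift was thus not unusual among promoters. At CCN2 the pair of cores that lie 104 to 99 and 95 to 90 bases before the start was inside the peak in all 4 DMSO samples and in 0 of 4 ACBI1 samples. The core 169 to 164 bases before the start was wholly inside the peak in no sample.

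The position of the edge against the cores was compared with other promoters. Of 799 cores within 250 bases before a start that were inside a peak in all 4 DMSO samples, 23 (2.88%) were inside a peak in no ACBI1 sample, and 4 starts had at least 2 such cores. At starts with a peak within 1 kb in all 8 samples it was 8 of 754 cores (1.06%), at 7 starts, of which CCN2 had 2 and the others 1 each. At the same distance of 104 to 90 bases before a start, whatever the letters, 0.366% of 10100 starts left the peak in this way. These counts were made because of what was seen at CCN2, so they describe it and do not test it.

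**Figure D3:**
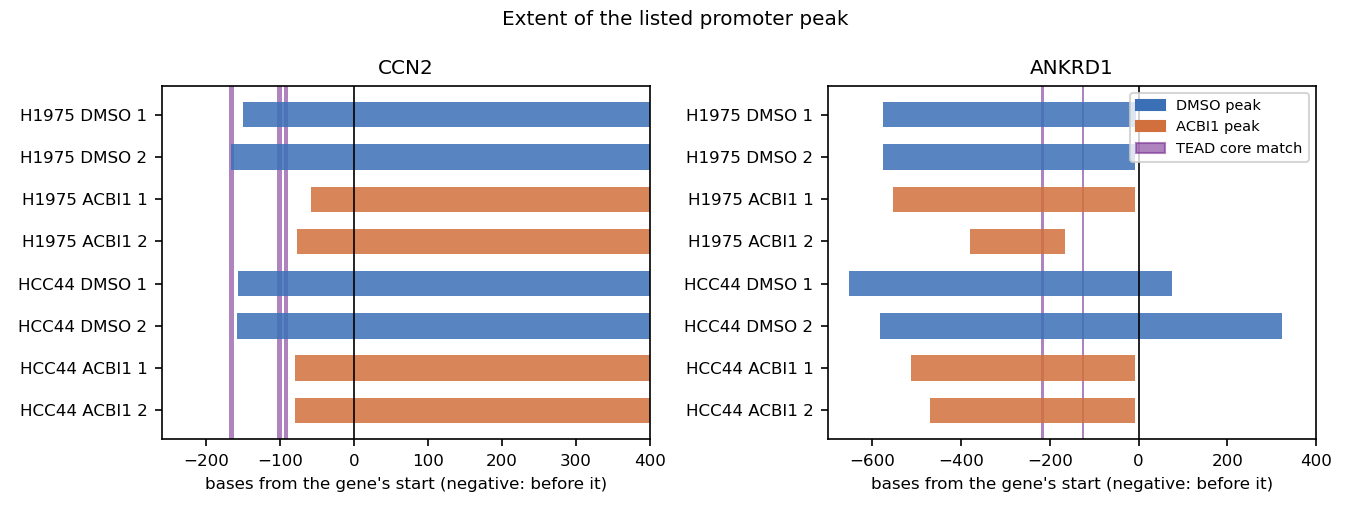
Extent of the listed promoter peak in each sample (rows) in bases from the start (horizontal axis, negative before the start), with TEAD core matches as vertical bands; the CCN2 peaks run on to the right of the panel. In CCN2 the pair of bands at 104 to 90 bases before the start lies inside the 4 DMSO peaks and outside the 4 ACBI1 peaks.

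ANKRD1, at chr10:90912096-90921087 on the reverse strand, encodes a nuclear ankyrin repeat protein. In H1975 its window held 2 peaks in every list, and in HCC44 5 and 5 with DMSO and 3 and 4 with ACBI1. Its promoter peak ran across the start in both HCC44 DMSO lists, to 74 and 322 bases after it, and lay wholly before the start in the other 6 lists. It was 569 and 569 bp wide with DMSO and 545 and 213 bp with ACBI1 in H1975, and 727 and 906 against 504 and 461 bp in HCC44. The core 220 to 215 bases before the start was inside the peak in all 8 samples, and the core 128 to 123 bases before it in 7, all but H1975 ACBI1 replicate 2. All distal regions of ANKRD1 that were listed in both DMSO samples of a line belonged to HCC44: chr10:90930251-90931344 was retained, and chr10:90960064-90960772 and chr10:90968775-90969293 were lost.

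AMOTL2, at chr3:134355345-134375417 on the reverse strand, had 9 and 9 peaks against 6 and 4 (DMSO, then ACBI1) in H1975, and 10 and 9 against 7 and 7 in HCC44. The mean difference was −3.25 (exact permutation p = 0.0556). Of 8 regions listed in all 4 DMSO samples, 3 were lost in both lines, all below the gene, in a window of 120.1 kb. At least 3 were lost in the windows of 4.39% of genes. The region at chr3:134348505-134348926 stood at 30.9% and 30.8% from the top in H1975 DMSO and at 7.20% and 5.38% in HCC44 DMSO. The region at chr3:134320676-134321074 stood at 30.5% and 26.1% in H1975 DMSO and 41.7% and 35.2% in HCC44 DMSO. Both were lost in each line at equal list length as well. The third, chr3:134336471-134336897, stood between 54.5% and 84.3% in the DMSO lists. Just above the gene, chr3:134381899-134382193 was in both H1975 DMSO lists and no other. The region chr3:134326819-134328616 stood at 9.16% and 4.21% in HCC44 DMSO and at 55.8% and 56.1% in HCC44 ACBI1, and it was missing from H1975 ACBI1 replicate 2.

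Ranks were also compared among the 15072 regions listed in all 8 samples, a set that is the same in every list. This comparison was chosen after the data were seen. The members had 28 such regions. By −log10 q, 11 ranked lower in both ACBI1 samples in H1975, beside 26.4% of all such regions, 9 in HCC44, beside 26.3%, and 7 in both lines, beside 15.2%. In the other direction, 10 ranked higher in H1975, beside 34.3%, 8 in HCC44, beside 37.7%, and 4 in both lines, beside 19.5%. The smallest adjusted p over all 15072 regions was 0.160 (exact permutation test, Benjamini-Hochberg), so no region passed.

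Promoters of the targets differed in direction on this scale. The ANKRD1 promoter stood at 45.9% and 47.8% from the top with DMSO and at 87.6% and 95.4% with ACBI1 in H1975, and at 60.9% and 77.3% against 97.0% and 87.8% in HCC44. The groups did not overlap in either line. By fold enrichment it ranked lower in H1975, with 12.4% and 11.2% against 34.4% and 55.6%, and the groups overlapped in HCC44. The CCN2 promoter ranked higher, at 64.5% and 76.6% with DMSO against 51.6% and 57.2% with ACBI1 in H1975 and 62.8% and 78.0% against 35.1% and 35.0% in HCC44. It did so by fold enrichment too, at 61.8% and 72.2% against 44.7% and 53.1% in H1975 and 86.1% and 90.2% against 55.4% and 56.5% in HCC44. At CCN2 a higher rank of the peak therefore went with the nearer upstream edge given above.

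The AMOTL2 promoter ranked lower by −log10 q, at 26.3% and 28.6% with DMSO against 48.5% and 56.3% with ACBI1 in H1975 and 12.1% and 12.1% against 44.2% and 28.7% in HCC44. By fold enrichment its groups overlapped in both lines. The gene-body regions of AMOTL2 at chr3:134357703-134358788 and chr3:134363817-134365363 ranked lower in both lines by either measure. The first stood at 78.8% and 74.8% with DMSO against 94.3% and 94.6% with ACBI1 in H1975, and at 13.9% and 27.1% against 87.0% and 92.9% in HCC44, by −log10 q. A difference as large in this direction was seen in 2.76% of the regions by −log10 q and in 1.59% by fold enrichment. The second stood at 68.4% and 67.0% against 89.6% and 79.3% in H1975, and at 34.4% and 25.8% against 79.0% and 74.5% in HCC44, by −log10 q.

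Promoters of WWTR1 and TEAD1 ranked higher with ACBI1 in both lines and by either measure. By −log10 q WWTR1 stood at 30.0% and 30.2% against 14.1% and 15.7% in H1975, and at 27.7% and 30.9% against 21.6% and 20.5% in HCC44. TEAD1 stood at 30.6% and 34.6% against 23.5% and 23.5% in H1975, and at 64.1% and 68.2% against 51.4% and 34.5% in HCC44. Of the 9 promoter regions of members in the set, 3 ranked higher in both lines by −log10 q, beside 20% of all promoter regions, and 2 ranked lower in both, beside 9.25%. Within H1975 6 ranked higher, beside 35.1%, and within HCC44 3, beside 40.9%. By fold enrichment 4 ranked higher in both lines, beside 17.5%, and 0 ranked lower in both, beside 10.2%. A pair of regions in the CCN1 and WWTR1 windows had opposite order in the lines by at least 1 measure, beside 6.35% of all regions by −log10 q and 5.68% by fold enrichment. By −log10 q the promoters of YAP1, TEAD2, TEAD3 and TEAD4 overlapped between groups in at least 1 line.

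**Figure D4:**
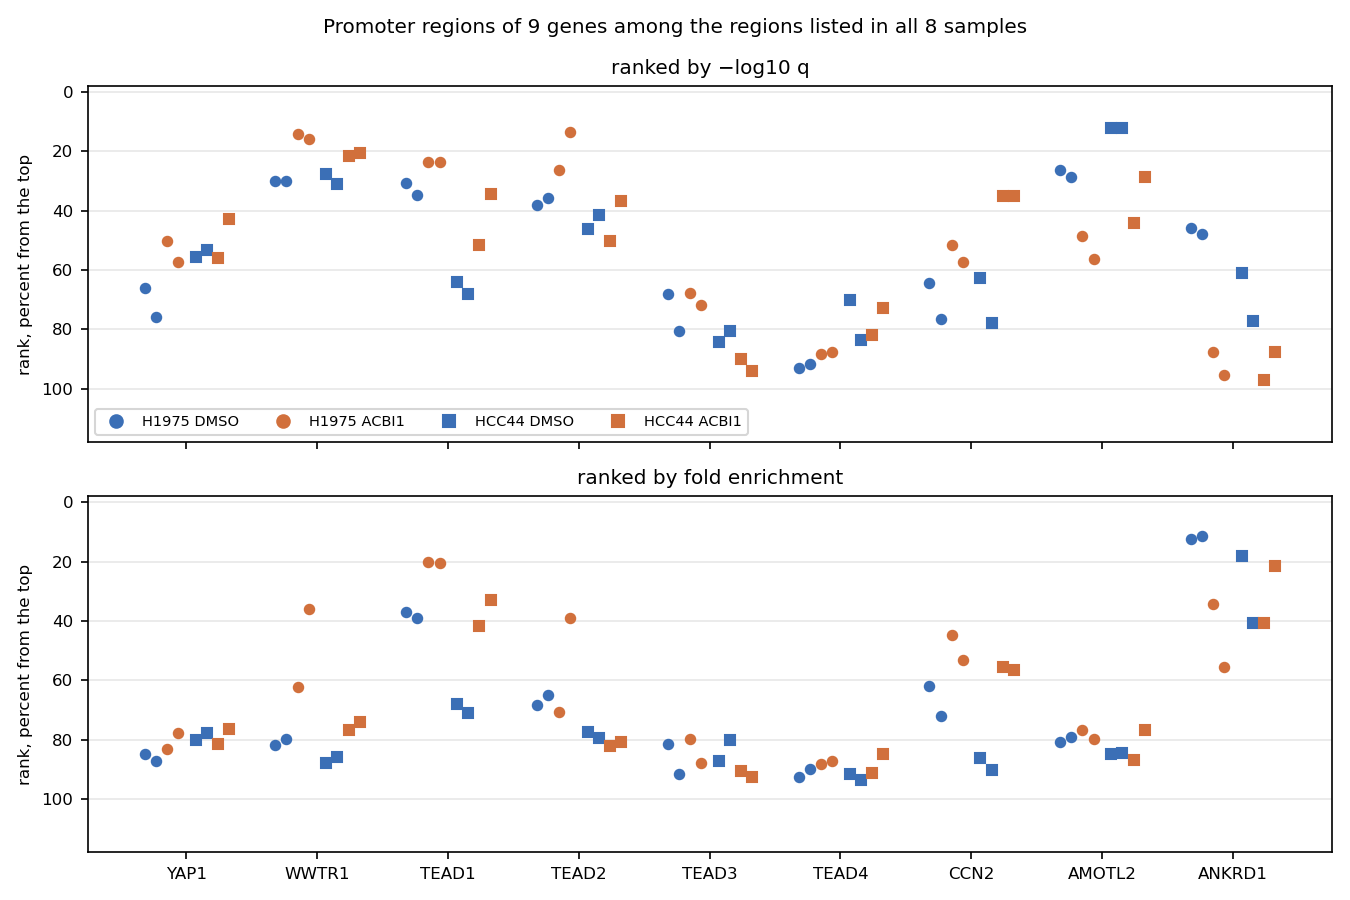
Rank of the promoter region of 9 genes among the 15072 regions listed in all 8 samples (vertical axis, percent from the top), by −log10 q in the upper panel and by fold enrichment in the lower one, with 1 point a sample. ANKRD1 lies lower with ACBI1 in the upper panel, from 45.9% and 47.8% to 87.6% and 95.4% in H1975, and CCN2 lies higher in both panels. The TEAD2 region also overlaps the promoter of DKKL1.

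Over all 10 windows in H1975, 25 of 66 regions that both DMSO lists held were lost, or 37.9%, beside 37.2% of all such regions. In HCC44, 34 of 81 were lost, or 42.0%, beside 49.2%. Among distal regions it was 24 of 47 in H1975, or 51.1%, beside 51.3%, and 33 of 61 in HCC44, or 54.1%, beside 63.9%. No region at a member's own start or gene end was lost in either line, beside 3.36% of promoter regions in H1975 and 6.57% in HCC44. In the lists as deposited, the shares lost among the members' regions were close to or below those over all regions. At equal list length 5 of 30 regions were lost in H1975, a smaller share than the 21.2% over all regions. In HCC44 it was 14 of 32, a larger share than the 35.9% over all regions.

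**Figure D5:**
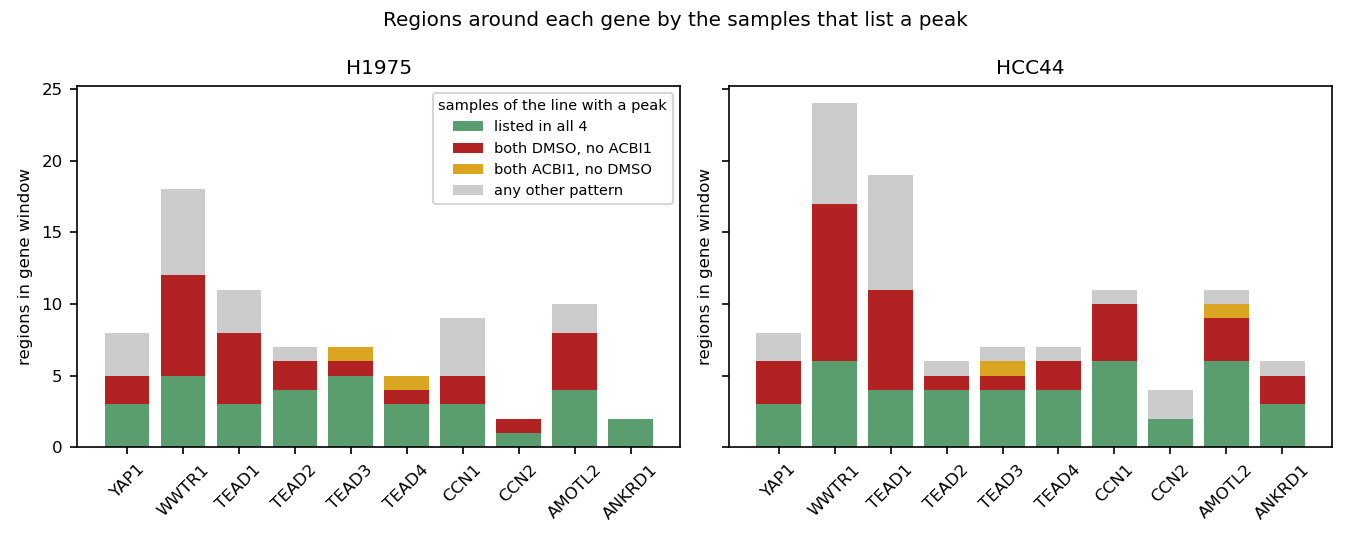
Number of regions in the window of each gene (vertical axis) in H1975 and HCC44, stacked by which of the line's 4 samples list a peak. WWTR1 has 7 lost regions in H1975 and 11 in HCC44, TEAD1 has 5 and 7, and ANKRD1 has 0 and 2.

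Across both lines, 56 of 112 merged regions had a peak in all 4 DMSO samples. Of these, 13 were lost in both lines, or 23.2%, beside 25.1% of all such regions, and 28 were retained in both, beside 51.8%. The 13 lay at WWTR1 (4), TEAD1 (3), AMOTL2 (3), TEAD2, TEAD4 and CCN1 (1 each), and 12 of them were distal, out of 38 distal regions, or 31.6%, beside 38.5%. None of the 10 regions at a member's own start or end was lost in both lines, beside 1.58% of promoter regions, and 9 were retained in both, beside 92.7%. At equal list length 5 regions were lost in both lines, the pair at WWTR1, the pair at AMOTL2 and the one at CCN1 named above. No region was lost in one line and gained in the other. The lines also differed with DMSO: 22 regions were listed in both DMSO samples of HCC44 and none of H1975, and 6 the other way. Over the 54006 regions listed in both DMSO samples of either line, the shares were 24.4% and 12.7%. That set is narrower than the 112 merged regions of the members. Of the 22, 14 were lost with ACBI1 and 7 were retained. The 14 were all among the 20 distal ones, beside 63.9% of all distal regions listed in both HCC44 DMSO samples. The share over all regions particular to HCC44 with DMSO was not counted.

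Other genes of the pathway were counted in the same way. Of 25 core and upstream Hippo genes, such as the kinases STK3, STK4, LATS1 and LATS2, 19 windows had fewer peaks with ACBI1 in H1975, 19 in HCC44 and 16 in both. Of 16 further genes known as targets of YAP and TAZ, it was 14, 15 and 13. Over all genes with a peak the shares were 49.5%, 62.4% and 37.5%. No window on either list had more peaks. The median differences were −3.5 and −4 peaks, against −1.25 over all genes tested, with no account taken of window length or DMSO count. The largest differences were at ASAP1, which encodes an Arf GTPase-activating protein, with 16 and 17 peaks against 6 and 4 in H1975 and 17 and 17 against 2 and 3 in HCC44. Next came PTPN14, a phosphatase that holds YAP in the cytoplasm, with 16 and 13 against 8 and 7 in H1975 and 17 and 17 against 7 and 6 in HCC44. CRIM1 and DOCK5 followed, each with a difference of −15.5 peaks summed over the lines. AMOT and VGLL3 had a difference of 0, VGLL3 with no peak in any list. A promoter or gene-end peak was in all 8 lists at 18 of the 25 genes and 13 of the 16, beside 53.5% of all 20056 genes.

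The genes whose peak counts were most like those of WWTR1 over the 8 samples were CNIH3, MYLK and TRAK1, each with absolute differences that summed to 10 peaks. Those most like AMOTL2, which tied with TEAD1 for regions lost in both lines and came first by name, were SFXN4 and TNKS1BP1, with a sum of 2, and COL4A1, with a sum of 3.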

How the data were processed

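Peak lists of 8 ATAC-seq samples were used, 2 in each of 4 groups, with 11 PCR cycles per the labels' protocols. BWA and hg38 are named in the submitters' processing notes, and the peak caller and its filters are not given in the sources used here. The authors deposited 1 list a sample, so peaks were called per sample. Each list gives the authors' fold enrichment (a ratio), −log10 p and −log10 q values and a score deposited with each peak; these values were used only within a list, and the score in no result.

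Gene positions and promoter sequences came from RefSeq tables (GRCh38.p14). A promoter peak overlapped 1 kb either side of a start; 7 members had a start in the promoter table, and both gene ends were used for the other 3 (TEAD1, TEAD4 and CCN1), which have no sequence shown. Overlap of 1 bp merged peaks into regions. Counts were compared by exact permutation within lines, two-sided, with Benjamini-Hochberg adjustment over all 18150 genes. The calculation was tested on simulated data. Python 3.11.15, numpy 2.4.6, pandas 2.3.3 and matplotlib 3.10.9 were used.

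The members and lists were chosen with earlier results of these data known. Besides the 10 members, the text names the 4 other Hippo or target genes with the largest decrease in peaks and the 2 with the largest increase (none increased), and up to 3 lost, retained or gained distal regions a member; genes of like pattern lie over 200 kb away. Regions lost in both lines, and promoter regions, are named as well. Ranks among regions listed in all 8 samples, promoter edges, distal counts and motif coverage were added after the data were seen. Alternatives were peak thresholds, equal list lengths, joining, window and promoter sizes, blocking by replicate number, and omitting single samples in turn. A further alternative took only the lower gene end for genes without a start.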

Additional observations from a re-analysis of the deposited data

Results flagged for a closer look

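In 2 regions of the gene windows the ACBI1 samples ranked in opposite directions in the lines, among the 15072 regions listed in all 8 samples. Every ACBI1 sample lay below both DMSO samples in H1975 and above both in HCC44. The difference between the lines was not tested, and opposite order was seen at 6.35% of all such regions by −log10 q and 5.68% by fold enrichment. The region over the promoter of DDAH1 in the CCN1 window, chr1:85576616-85578037, stood by −log10 q at 64.1% and 63.3% from the top with DMSO and 71.9% and 70.2% with ACBI1 in H1975, and at 76.2% and 78.9% against 45.8% and 56.4% in HCC44. The ACBI1 minus DMSO difference in HCC44 minus that in H1975 was −33.8 percentage points. By fold enrichment the same region gave −7.55 points. The region in the WWTR1 gene body at chr3:149579968-149582206 stood by fold enrichment at 65.9% and 66.4% against 80.2% and 71.5% in H1975, and at 93.3% and 95.0% against 82.4% and 90.2% in HCC44, a difference of −17.5 points. By −log10 q its groups overlapped in HCC44.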

How the results depend on the processing

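Cutting every list to its 22133 top peaks had the widest effect. The mean difference became 1.25 peaks at TEAD2 (exact permutation p = 0.167), 3.25 at TEAD4 (exact permutation p = 0.0556), 0.5 at CCN2 (exact permutation p = 0.667) and 0.5 at ANKRD1 (exact permutation p = 1). Genes with fewer peaks became 0 in H1975 and 2 in HCC44, lost regions 5 and 14, gained regions 9 and 14, regions lost in both lines 5, and HCC44 genes with a promoter peak in all 4 lists 5. The edge of the CCN2 peak gave no value there. At a minimum −log10 q of 20, TEAD3 became −1.25 (exact permutation p = 0.167) and gained regions 1 in H1975 and 0 in HCC44. At a minimum fold enrichment of 5, TEAD3 became −1.75 (exact permutation p = 0.0556) and gained regions 1 and 1. Genes with a promoter peak in all 4 lists became 6 in H1975 and 1 in HCC44. No member with one in both DMSO samples lost it at this setting or at equal list length. With 20 kb either side, ANKRD1 became 0.25 (exact permutation p = 1), gained regions in HCC44 0 and regions lost in both lines 8; with 100 kb, TEAD3 became −1.75 (exact permutation p = 0.111). The cause was not tested.

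With each replicate left out, WWTR1 ranged from −11.5 to −9.5, TEAD1 from −9 to −7.5, lost regions from 25 to 33 (H1975) and from 34 to 43 (HCC44), gained regions in H1975 from 2 to 5, the 5 without H1975 ACBI1 replicate 2. The promoter rank difference of TEAD3 ranged from −0.489 (without H1975 DMSO replicate 1) to 5.76, and that of TEAD4 from −5.35 to 1.39 (without HCC44 DMSO replicate 2), with 0.289 without HCC44 ACBI1 replicate 2 and 1.12 among promoter regions only. That of AMOTL2 became −2.27 by fold enrichment.

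With the replicate block, WWTR1 kept −10.5 with exact permutation p = 0.125, the smallest 16 swaps allow, and no call could change. The replicate 1 minus replicate 2 difference in peaks correlated between DMSO and ACBI1 at 0.105 in H1975 and 0.0446 in HCC44 over genes, so the numbers were not taken to pair them. Depth is unknown, which limits what a missing peak or a peak edge shows.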

Other observations

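One peak start in the TEAD2 window, at chr19:49301206, was the same base in all 8 lists, as it was at 3 of the 15072 regions listed in all 8 samples. In the TEAD4 gene, 72.9 kb of the gene body above the promoter held no peak in any list, and 108 kb above the ANKRD1 distal regions held none.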
